A study of Mus musculus with 40 samples.

Results

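The data are edited lineage-tracing arrays from 1 piece of mouse liver, and the alleles described here are those listed with several separate joins. A join is a deletion, with or without inserted bases, that reached the cut windows of at least 2 target sites. Members were chosen by the deposited edit list itself: alleles with 2 or more joins and 5 or fewer events in all. They numbered 5211 of the 12767 alleles listed (40.8%, 95% exact binomial interval 40.0 to 41.7%). What the rule used (the number, kind and position of events) is given as a description throughout, and nothing is tested with it.

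The series sampled liver lobes of DARLIN mice, 40 samples from 5 animals, and the files analysed here come from 1 of them. It was taken from the right inferior lobe of YK184 and carries the mark E15.5, and its total RNA was converted to array amplicons with a primer carrying a unique molecular identifier (UMI). Whether that mark means the time of induction or of collection is not stated in the labels. No control, untreated or replicate library was analysed here, so no comparison between samples was made. Intervals cover counting error within this library only, and alleles of 1 library are not independent replicates.

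DARLIN carries an array of Cas9 target sites at the Col1a1 locus, together with an inducible Cas9 fused to terminal deoxynucleotidyl transferase (TdT). Cas9 cuts both DNA strands near the end of a target, and TdT adds bases to free DNA ends without a template. When an array is cut at several sites, the ends can be joined across the intervening segment, which is lost, and the change is passed to daughter cells. An array joined at 2 places has therefore kept a segment between 2 lost ones. Col1a1, which encodes a chain of type I collagen, lies on chromosome 11 at 94936224 to 94953042 (build GRCm38.p6). The place of the array relative to the gene is not stated in the labels.

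Base 1 is the start of the array. It was laid out as 10 sites in a repeat unit of 27 bases. The cut window of site 1 is bases 19 to 25 with the cut after base 22, and each later site lies 27 bases further. The library listed 32342 UMIs, and the members held 10068 of them (31.1%, 95% exact interval 30.6 to 31.6%). A UMI counts 1 array transcript and not 1 cell.

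The sequences inserted at the joins are shown first because a small set of them recurred and set some members apart. Of the 43 inserts of 8 or more bases that stood at joins of 3 or more members, 14 stood in 10 or more, and 8 of those follow, named by the first base their join most often deleted. Capitals mark CGACTCC, the 7-letter word found in the most distinct recurring inserts (16 of 43).
Join from base 223: tgtCGACTCCatcg
Join from base 224: ctccatcg
Join from base 23: tcgacgagcgcgctc
Join from base 154: CGACTCCatcg
Join from base 210: gtcgCGACTCCatag
Join from base 25: tgtgcgtacagtcgcg
Join from base 36: tCGACTCCa
Join from base 75: tccatagttcgacgagcgcgctc
The insert at base 223 stood in 75 members with 153 UMIs, always from base 223, and in 72 of them the deletion ran to base 265. The insert at base 224 stood in 57 members, the one at base 154 in 40 and the one at base 210 in 37. The insert of 15 bases named for base 23 began at 10 different bases but ended at base 153 in 40 of 45 members. The insert of 16 bases named for base 25 ended at base 72 in all 29 of its members. Each of these 8 inserts had its start or its end at a single base in most of its members.

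Most members had exactly 2 joins. There were 4477 members with 2 joins (85.9%, 95% exact interval 84.9 to 86.8%), 658 with 3, 75 with 4 and 1 with 5. By number of events, 902 members had 2, 1948 had 3, 1571 had 4 and 790 had 5. In 1150 members (22.1%) every event was a join, and the others added edits at single sites. The joins of 2-join members were short beside the joins of alleles with a single join: the left join took a median of 4 sites and the right join 4, against 8 sites for the join of the 6726 alleles with 1 join and 5 or fewer events. In total the array was shortened alike, by a median of 186 bases in members (quartiles 160 and 198) and 187 bases in 1-join alleles (169 and 212).

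At the edge of the rule, the 790 alleles with 2 or more joins and 5 events had 1.39 UMIs on average, and the 410 alleles with 6 events, which were left out, had 1.49. In 1435 members all joins but the widest reached exactly 2 windows, with a mean of 2.02 UMIs. Just outside were 2218 alleles with 1 join and another deletion in 1 window, with a mean of 2.12 UMIs.

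Most members were read from a single UMI. Mean UMIs were 1.93 per allele in members and 3.15 in 1-join alleles, with medians of 1 and 1 and maxima of 55 and 1589 UMIs. In members 64.1% had a single UMI (95% exact interval 62.8 to 65.4%), against 60.0% (58.9 to 61.2%) of 1-join alleles. UMIs were not used to choose members, but both groups differ in their number of events. At 2 events, mean UMIs were 2.92 in members and 3.57 in 1-join alleles. At 3 events the means were 1.96 in members and 2.04 in 1-join alleles, and 60.2% and 59.8% had 1 UMI. At 4 events the order of the means turned, with 1.61 in members and 1.47 in 1-join alleles, and 70.1% (67.8 to 72.4%) and 76.5% (74.0 to 78.9%) had 1 UMI. At 5 events the means were 1.39 in members and 1.30 in 1-join alleles, and 78.4% (75.3 to 81.2%) and 80.4% (76.5 to 83.9%) had 1 UMI. Only at 4 events did the intervals of these shares lie apart. The 1-join alleles also include 431 of a single event, a class that members cannot have, with 14.6 UMIs on average. Without these, 1-join alleles averaged 2.36 UMIs.

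The most abundant member, with 55 UMIs, lacked bases 24 to 62 and bases 77 to 263, with a G inserted at the right join. It kept 14 bases of the array between the joins. The next, with 42 UMIs, lacked bases 23 to 49 with AG inserted and bases 77 to 264 with GGA inserted, and so kept the 27 bases between the cuts of sites 2 and 3. A member with 38 UMIs lacked bases 50 to 131 and bases 212 to 267 and had small deletions at bases 18 to 36, 151 to 170 and 185 to 186. Another with 38 UMIs lacked bases 19 to 234 and bases 237 to 270, with only 2 bases kept between, and GGA inserted at the right join.

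Of the other members among the 10 most abundant, a further pair joined sites 1 to 2 and sites 3 to 10, with 32 and 24 UMIs. The allele with 32 UMIs had an 8-base insert at the left join, and the allele with 24 UMIs had GG there. The deletions of bases 16 to 196 and 212 to 265 had 32 UMIs, those of bases 4 to 160 and 185 to 267 had 30, those of bases 25 to 172 and 181 to 239 had 26, and those of bases 23 to 183 and 212 to 267 had 24. All 10 had exactly 2 joins, and 8 of the 10 had no other event. The tenth place was tied at 24 UMIs and taken in the order of the list; the tied allele not counted lacked bases 35 to 166 and 185 to 264 and had 1 other event. Identical edits can arise in different cells, so an allele is not necessarily 1 clone.

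The pair of joins was counted over the 4477 2-join members by the first and last site each join reached. Left and right joins filled 129 of 196 possible pair classes. The most frequent left joins were sites 1 to 3 (709 alleles, 15.8%), 1 to 5 (607), 1 to 6 (590), 1 to 2 (387) and 1 to 7 (317). The most frequent right joins were sites 8 to 10 (650 alleles, 14.5%), 6 to 10 (601), 7 to 9 (488), 7 to 10 (415) and 5 to 10 (368). The left join began at site 1 in 66.3% of 2-join members and the right join ended at site 10 in 58.1%. Of 1-join alleles, 44.0% joined from site 1 and 32.6% to site 10. Both outer sites were taken in 34.9% of 2-join members, against 38.5% from the product of the 2 shares.

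The most frequent pair was sites 1 to 6 with sites 7 to 9, in 210 alleles with 473 UMIs. It was followed by 1 to 7 with 8 to 10 (186 alleles, 546 UMIs), 1 to 3 with 4 to 9 (154), 2 to 5 with 6 to 10 (143), 1 to 5 with 6 to 10 (142), 1 to 2 with 3 to 10 (139), 1 to 3 with 5 to 10 (136), 1 to 6 with 8 to 10 (133), 1 to 5 with 6 to 9 (121) and 3 to 5 with 6 to 10 (118). In 8 of these 10 classes the joins lay at neighbouring sites, so that no cut window was left between them. In UMIs the order differed: joins of sites 1 to 2 and 3 to 10 held 554 UMIs, more than the most frequent class.

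Most of these counts were close to independent pairing, but some classes departed from it. Expected counts came from the totals of each left and each right join, with pairs that would share a site set to 0; no 2-join member had joins that shared a site. Observed over expected was 1.01 for the most frequent pair (95% Poisson interval 0.880 to 1.16). Of 83 classes with an expected count of 10 or more, which held 94.5% of 2-join members, the interval spanned 1 in 65, lay above 1 in 11 and below 1 in 7. In 7 of the 83 the ratio is fixed at 1, since 1 of the joins has a single possible partner. As a check of the intervals and not a test, 200 sets of independent pairs were simulated from the expected counts. In these sets the interval spanned 1 for 98.8% of the classes, those fixed at 1 included. Alleles were drawn independently there, which need not hold for the alleles of 1 library. To match independent pairing exactly, 527 alleles (11.8%) would have to change class. Counting error alone also makes such differences, and its part in the 527 was not estimated. A pair's own alleles enter the totals, so the ratios understate departures.

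The departures followed how much of the array the 2 joins took together. Pairs that took all 10 sites were seen in 831 alleles, 0.764 of the number expected (0.713 to 0.818). These include 1 to 2 with 3 to 10 (139 alleles) and 1 to 8 with 9 to 10 (85), whose ratios are fixed at 1. The counts at 7, 8 and 9 sites include fixed classes too. Pairs that took 7, 8 or 9 sites were seen at ratios of 1.16, 1.19 and 1.10, in 593, 1307 and 1676 alleles. Pairs that took 6 sites were seen in 63 alleles where 199 were expected, a ratio of 0.317 (0.244 to 0.406). Pairs that took 5 were seen in 6 alleles where 53.7 were expected, a ratio of 0.112. The totals of left and right joins fix the mean number of sites taken. Low ratios at few sites must therefore be offset at other numbers, and these are not separate departures. The same holds for the next comparison. When outer ends were instead paired among alleles with the same inner ends, a comparison chosen after seeing the data, the ratios were nearer to 1: 0.312 (0.114 to 0.678) for 5 sites, 0.460 (0.353 to 0.588) for 6, between 1.06 and 1.07 for 7 to 9, and 0.865 (0.808 to 0.926) for all 10. Arrays that had lost little were nearly absent from the whole list: a net loss under 100 bases was found in 9 of 5211 members and 74 of all 12767 alleles. Its part in the ratios was not tested.

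The single classes named next are those with an expected count of 10 or more; rarer classes reached higher ratios on few alleles. Expected counts keep the total of each join, so high and low ratios of the same join offset each other and are not separate departures. Joins of sites 3 to 5 had both high and low ratios. They were paired with 6 to 10 in 118 alleles, 1.73 times the expected count (1.44 to 2.08). With 6 to 8 they occurred in 2 alleles where 13.5 were expected, a ratio of 0.148. With 7 to 9 they occurred in 3 alleles (ratio 0.157) and with 8 to 10 in 1 allele (ratio 0.0962). These low classes took 6 sites each, so they are part of the low count at 6 sites given above. Within that limit the highest ratio was for 1 to 3 with 7 to 10, in 32 alleles (2.44, 1.67 to 3.44). Next came 1 to 2 with 5 to 10 (39 alleles, ratio 1.85), 2 to 3 with 4 to 10 (38 alleles, 1.79) and 1 to 5 with 7 to 8 (21 alleles, 1.71). Low ratios were also found for 1 to 3 with 6 to 8 (4 alleles, 0.369), again 6 sites. The same was seen for 2 to 3 with 5 to 9 (6 alleles, 0.487, interval 0.179 to 1.06). The frequent classes 1 to 5 with 6 to 10 (142 alleles, 0.567) and 1 to 6 with 7 to 10 (117 alleles, 0.663), which take the whole array, were below expectation as well.

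Given the totals of left and right joins, the number of sites left between them was close to independent pairing. Those totals fix the mean number of sites left between, so this closeness is partly set in advance. No site was left in 3023 alleles (67.5%; ratio 0.989, 0.954 to 1.02), 1 site in 1050 (1.04), 2 sites in 315 (1.03) and 3 sites in 80 (1.03). At 4 sites the count fell short, with 8 alleles and a ratio of 0.399 (0.172 to 0.787), and 1 allele kept 6 sites. With joins drawn from 1-join alleles in place of those totals, it was not close: the ratios were 0.845, 1.36, 2.86 and 6.31 for 0, 1, 2 and 3 sites.

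Several single classes moved when outer ends were paired among alleles with the same inner ends. Of the 83 classes with an expected count of 10 or more in that comparison, 18 had a ratio fixed at 1, and the interval spanned 1 in 53 of the other 65. The value of 3 to 5 with 6 to 8 stayed low at 0.0983, and that of 3 to 5 with 6 to 10 was 1.42. The low values of 3 to 5 with 7 to 9, 3 to 5 with 8 to 10 and 1 to 3 with 6 to 8 became 0.310, 1.17 and 1.11. That of 1 to 6 with 7 to 10 became 0.859, with an interval that spanned 1 (0.710 to 1.03). The high values of 1 to 3 with 7 to 10 and 1 to 2 with 5 to 10 were fixed at 1, since with those inner ends the left join began at site 1 in every allele.

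Where no site was left between the joins, the left join most often reached to site 5 and the right join from site 6 (729 alleles, 24.1%). Sites 6 and 7 followed (615, 20.3%), then sites 7 and 8 (522, 17.3%). The 2 sites were 3 and 4 in 404 alleles, 4 and 5 in 327, 2 and 3 in 275, and 8 and 9 in 151. The unit between 2 such cuts holds neither cut window whole. Between 62.3% (sites 8 and 9) and 76.3% (sites 6 and 7) of the kept segments had both ends within 3 bases of a cut. At sites 5 and 6 these were 470 of 729. The other segments did not keep that unit from cut to cut. In 3-join members the commonest arrangement was sites 1 to 2, 3 to 5 and 6 to 10 (34 alleles, 73 UMIs), among 109 arrangements.

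The stretch of array kept between consecutive joins peaked at whole repeat units. Over 6022 such stretches the median was 27 bases, with a range of 1 to 178. Stretches of 27 or 28 bases made up 30.6%, and those of 54 or 55 bases made up 10.4%. A separate group was short: 945 stretches (15.7%, 95% exact interval 14.8 to 16.6%) had under 10 bases, and 305 of them had exactly 6. At least 1 such stretch occurred in 742 members (14.2%). It occurred in 41.8% of 3-join members and 8.98% of 2-join members, and 3-join members have more stretches each. Whether so short a stretch parts 2 joins or lies within 1 was not tested.

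The same pairs of joins recurred to the base. The 4477 2-join members used 2617 exact position pairs, and 2436 members shared theirs with at least 1 other. The commonest removed bases 23 to 157 and 185 to 238 and kept the 27 bases between the cuts of sites 6 and 7. It occurred in 56 alleles with 113 UMIs and 16 different combinations of junction inserts, of which no insert at either join was the commonest (17 alleles). All 56 carried at least 1 further event; site 10 lay outside both joins. The pair that removed bases 23 to 76 and 104 to 265 occurred in 20 alleles with no other event, and these differed in nothing but the inserts. The largest of them, with 6 UMIs, had G at the left join and none at the right. Others had GC and none (4 UMIs), GG and G (3 UMIs), and AG and T (2 UMIs).

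Joins in members began more exactly at a cut than they ended. Of 11233 joins, 67.1% started directly after a cut (95% exact interval 66.2 to 67.9%) and 44.8% ended directly before one (43.9 to 45.7%). Ends 1 base before the cut made up 16.2%, and ends 2 or 3 bases after it 13.9%. In 1-join alleles 74.9% started and 41.1% ended exactly at a cut. Joins from cut to cut with no inserted base made up 15.3% of joins in members and 8.43% in 1-join alleles. Of the joins of members, 35.8% had the positions of a join found in a 1-join allele. The rule by which ambiguous ends were placed is not stated in the labels.

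A site was kept between the joins, with its cut window reached by neither, in 1454 2-join members (32.5%, 95% exact interval 31.1 to 33.9%). Over all members 2237 sites were kept in this way, in 1697 alleles, and all were among sites 3 to 8, since a join on either side takes at least 2. The sites kept most often were site 4 (566 alleles) and site 6 (536), followed by site 7 (437) and site 5 (415). Sites 8 (143 alleles) and 3 (140) were kept least.

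Most kept sites carried an edit of their own. Of the 2237 kept sites 1919 were edited (85.8%, 84.3 to 87.2%), by an insertion alone in 1050, by deletions with or without inserted bases in 841 and by a substitution alone in 28. The edited share was highest at site 7 (92.7%, 89.8 to 94.9%) and lowest at site 5 (81.2%, 77.1 to 84.9%), with 83.4% at site 4, 83.6% at site 6, 90.2% at site 8 and 91.4% at site 3. The interval of site 7 lay above those of sites 4, 5 and 6. The interval of site 8 overlapped all others, and that of site 3 all but that of site 5. Insertions alone made up 54.4% of outcomes at site 4 and 34.2% at site 5, the highest and lowest shares, with intervals that did not overlap (50.2 to 58.6% and 29.7 to 39.0%).

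Sites 4 to 7 were edited less often outside the join of 1-join alleles. Site 4 was edited in 83.4% of members that kept it between joins (80.1 to 86.4%), against 58.4% of 1-join alleles that kept it (50.8 to 65.8%, n = 178). Site 7 was edited in 92.7% of members and 73.3% of 1-join alleles (66.1 to 79.7%). The limit of 5 events bears on both groups, and most on 1-join alleles that keep many sites. With any number of events allowed for the 1-join alleles alone, a choice made after seeing the data, they had 72.0% edited at site 4 (66.2 to 77.2%), 73.8% at site 5 (64.4 to 81.9%), 70.5% at site 6 (59.8 to 79.7%) and 81.7% at site 7 (76.4 to 86.2%). The intervals of members still lay higher at sites 4, 6 and 7 and overlapped those of 1-join alleles at sites 3, 5 and 8.

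The class that kept site 4 between joins of sites 1 to 3 and 5 to 10 had 136 alleles with 278 UMIs, and site 4 was edited in 119 of them, 87 by an insertion alone. There were 21 different insertions, most often G (26 alleles) and A (15 alleles). The class that kept site 7 between 1 to 6 and 8 to 10 had it edited in 124 of 133 alleles, by an insertion alone in 68. Between 1 to 6 and 8 to 9 site 7 was edited in all 54 alleles, by an insertion alone in 12 and by a deletion in 42. This class was thus unlike its neighbour in the kind of edit at the kept site. Where a single site was kept, it was unedited in 114 of 1050 alleles (10.9%). Where 2 or more were kept, all were edited in 283 of 404 alleles and none in 26.

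Insertions at kept sites were short and rich in purines. Of 1050 insertions alone at these sites, A made up 27.4%, G 24.3% and C and T 8% each. A and G were 78.5% of the inserted bases (76.4 to 80.5%). The outermost sites, where they lay outside the joins, were edited almost without exception: site 1 in 98.0% of 1666 members and site 10 in 97.9% of 2046. In all, 92.1% of members had every site altered (91.3 to 92.8%), against 85.6% of 1-join alleles (84.7 to 86.4%).

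Bases were inserted at 5312 of 11233 joins in members (47.3%, 46.4 to 48.2%), close to the 47.8% of 1-join alleles (46.6 to 49.0%). The left join held inserted bases more often than the right: 50.9% of left joins (49.4 to 52.3%) against 38.0% of right joins (36.5 to 39.4%) in 2-join members. Inserts at both joins were found in 20.2% of 2-join members (19.1 to 21.4%) and at neither in 31.4%. The product of the shares of left and right joins gives 19.3% and 30.5%. In the 3686 2-join members with 20 or more bases kept between the joins, both joins had inserts in 17.2%, against a product of 17.5%. In the 402 with a stretch under 10 bases, both joins had inserts in 55.7%, against a product of 52.1%. There the order of the sides turned, with inserts at the left join alone in 12.7% and at the right alone in 20.4%.

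Most inserts were of 1 to 3 bases: 1982 joins had 1 inserted base, 1020 had 2 and 540 had 3, while 1132 had 4 to 9 and 638 had 10 or more. The commonest was a single G, at 863 joins (16.2% of joins with inserts), followed by A at 611, T at 448, GG at 220, AG at 200, GA at 107 and AT at 78. The 14-base insert at base 223 came next with 75 joins, ahead of AA with 70 and GCG with 64. In 1-join alleles that 14-base insert was not found, and A (594 joins) was commoner than G (491 joins). Among inserts of 1 to 3 bases in members, 71.1% of bases were A or G (69.9 to 72.3%); left joins had 75.1% (73.4 to 76.7%) and right joins 68.6% (66.5 to 70.7%).

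Inserts of 8 or more bases occurred at 7.88% of joins in members (7.39 to 8.39%) and at 1.98% in 1-join alleles (1.66 to 2.34%). Inserts of 10 or more bases stood at 5.68% of joins in members and 1.29% in 1-join alleles, but at 1.35% in the 3987 members that kept 20 or more bases between all joins. Over all inserted bases the purine share was 52.5% in members (51.8 to 53.1%) and 69.9% in 1-join alleles (68.9 to 70.9%). Of the 885 such joins in members, 532 held 1 of the 43 recurring sequences, and these occurred in 463 members. The word in capitals above was present in 329 of the 885 long inserts of members (37.2%), from which it was picked. It was also present in 26 of the 133 long inserts of 1-join alleles (19.5%, 13.2 to 27.3%). Its reverse complement, GGAGTCG, was present in 0 of 885, which allows a share of up to 0.416%, the upper bound of the exact interval. In 1-join alleles the reverse complement was present in 0 of 133 (up to 2.74%). These bounds take each join as a separate draw, but the 885 long inserts of members were only 365 distinct sequences. The word was picked for its frequency in members, so setting it beside its reverse complement there is description only.

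Long inserts went with short kept stretches. Where fewer than 10 bases were kept between the joins, 61.6% of stretches had an insert of 8 or more bases at a flanking join (58.4 to 64.7%). With 10 to 19 bases kept the share was 9.51%, with 20 to 30 it was 3.64% and with more than 30 it was 8.60%. Of the joins that held a recurring insert, 423 of 532 (79.5%) lay beside a stretch under 10 bases. The short stretches also lay at few places, as 8 of 143 different ones made up 48.1% of them. The commonest kept bases 154 to 159, in 109 cases. Its most frequent left insert was the one named above for base 23 (31 cases) and its most frequent right insert was CCATAG (44 cases). Together, in 11 cases, these inserts and the 6 kept bases made a run of 27 bases between the outer joins, the length of 1 repeat unit.

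Other short stretches also had frequent partners. Bases 217 to 222 were kept in 59 cases, followed by the 14-base insert at base 223 in 44. Bases 218 to 223 were kept in 43 cases, each with no insert on the left, and followed by the insert at base 224 in 37. Bases 147 to 153 were kept in 53 cases and followed by the insert at base 154 in 31. Over all short stretches, the inserts and kept bases added up to 26 to 28 bases in 93 of 945 (9.84%), and the median was 16 bases. The inserts were not compared with the array, whose sequence was not among the sources used here.

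Inserts of members differed with the shortest stretch kept. Those with at least 20 bases kept at every place numbered 3987 (76.5% of members). Inserted bases were present at 43.0% of their joins (41.9 to 44.1%), against 73.1% (71.0 to 75.1%) in the 742 members with a stretch under 10. Inserts of 10 or more bases stood at 25.9% of joins in the 742. The purine share of their inserted bases was 64.8% (63.8 to 65.8%) in the 3987 and 42.7% (41.8 to 43.6%) in the 742. Mean UMIs were 2.07 in the 742, 2.41 in the 482 members with a shortest stretch of 10 to 19 bases and 1.85 in the 3987. A single UMI was found for 61.5%, 54.6% and 65.7% of these, in the same order.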

How the data were processed

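Per the labels' protocols, liver RNA was copied to cDNA from a UMI-bearing primer in the array and amplified by nested PCR. The submitters' processing notes name build mm10. Which allele caller was run, and with what filters, is not stated in the labels. The authors deposited 2 text lists for the library: the edits of each allele, and the 12-base UMIs of each allele in the same order. Neither holds read counts, so read depth is unknown and the 32342 UMIs set the precision.

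The layout of 10 sites (targets of 20 bases, windows of 7) comes from general knowledge of the array. Joins, kept sites and inserts were read from the edit list. Expected pair counts were fitted by iterative proportional fitting. Intervals are exact binomial (Clopper-Pearson) or exact Poisson, at 95%. No test was run. The scripts were tested on simulated data. Alleles and joins were named by rank in UMIs, in alleles and in ratio; the class of sites 1 to 6 with 8 to 9, the frequent whole-array classes with low ratios, the short-stretch classes and the 8 inserts printed were singled out after their values were seen. Members, lists and alternatives were chosen with earlier results of these data known. Python 3.11.15, numpy 2.4.6 and scipy 1.17.1 were used.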

Additional observations from a re-analysis of the deposited data

How the results depend on the processing

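Of 95 values recomputed for 10 results, 28 stayed within the interval of the value reported, or within 1.5 times for a count. Leaving out alleles under 2 or under 3 UMIs gave 1872 and 923 members, 39.8% and 37.8% of alleles, 27.7% and 24.5% of UMIs, 88.0% and 89.8% with exactly 2 joins, 25.5% and 20.5% with a kept site, 88.6% and 89.0% of kept sites edited, and 45.6% and 43.9% of joins with inserts. Counting overlap with the whole target gave 43.6% of alleles, 33.4% of UMIs, 81.3% with exactly 2 joins, 27.9% with a kept site and a purine share of 51.6%. Counting only plain deletions as joins gave 1685 members, 13.2% of alleles, 10.6% of UMIs, 95.4% with exactly 2 joins and 36.5% with a kept site. With no limit on events the values were 45.5% of alleles, 33.7% of UMIs, 65.8% with 1 UMI, 83.5% with exactly 2 joins, 35.0% with a kept site, 89.3% of kept sites edited, 49.3% of joins with inserts and a purine share of 49.9%. Exactly 2 events gave 902 members, 7.07% of alleles, 8.14% of UMIs, 49.4% with 1 UMI, 6.54% with a kept site, 45.5% of joins with inserts, a purine share of 61.4% and a ratio of 0.571 for the most frequent pair, from 1 allele. Without inserts of 10 or more bases the values were 35.9% of alleles, 27.8% of UMIs, 89.1% with exactly 2 joins, 84.2% of kept sites edited, 42.0% of joins with inserts and a purine share of 64.4%. Merging alleles that differed in inserted bases alone gave 50.5% of alleles, 59.4% with 1 UMI, 83.1% with exactly 2 joins, 36.6% with a kept site, 45.9% of joins with inserts, a purine share of 51.2% and a ratio of 0.794. Weighting by UMIs gave 33.2% with 1 UMI, 88.1% with exactly 2 joins, 26.1% with a kept site, 87.3% of kept sites edited and 45.3% of joins with inserts. Requiring 20 or more bases between joins, chosen after seeing the data, gave 31.2% of alleles, 22.8% of UMIs, 65.7% with 1 UMI, 92.5% with exactly 2 joins, 39.3% with a kept site, 43.0% of joins with inserts and a purine share of 64.8%. For the most frequent pair, the plain product of totals, which allows overlapping joins, gave 3.27, and joins drawn from 1-join alleles gave 1.26. Joins so drawn gave far lower ratios for classes that take the whole array, such as 0.297 for 1 to 7 with 8 to 10, 0.244 for 1 to 5 with 6 to 10, 0.219 for 1 to 3 with 4 to 10 and 0.104 for 1 to 4 with 5 to 10. Beyond what each setting leaves out, the cause was not tested. Some settings give no value for some results, such as the share with 1 UMI under a UMI minimum.

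No paired analysis was possible because 1 library was analysed. The median allele rested on 1 UMI, which limits the precision of its listing, and pair classes of few alleles have wide intervals. Sequencing errors in UMIs or edits cannot be told apart from rare alleles here.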
